A study of Homo sapiens with 12 samples.

Results

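The E2F transcription factors E2F1, E2F2, E2F3, E2F5, E2F7 and E2F8, the retinoblastoma pocket proteins RB1, RBL1 and RBL2, and LIN9 were followed on Affymetrix arrays of HepG2, an established human hepatoma cell line. They were taken by name, and each was measured by 1 probe set whose annotation gives that symbol alone, so that 10 of the 18417 genes with such a probe set are described. All 10 were among the 13813 genes bright enough to be tested. The cells carried a hairpin directed at p53 (sh-p53) or a non-relevant one (sh-con), and no group was free of a hairpin. For 24 h they received 10 uM Nutlin, which keeps the ubiquitin ligase MDM2 from binding p53, 0.5 mM AICAR, which activates the kinase AMPK, or DMSO as the control. The 6 groups were sh-p53 with Nutlin, sh-p53 with AICAR, sh-p53 with DMSO, sh-con with Nutlin, sh-con with AICAR and sh-con with DMSO, each with 2 arrays from biological duplicate wells. The labels name 1 line per hairpin, so the hairpin and any other difference between these lines cannot be told apart. Likewise, an array of a whole culture cannot tell fewer cells with a transcript and less transcript per cell apart.

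E2F factors bind the promoters of genes for DNA replication and cell division. Pocket proteins bind E2F factors and hold those genes silent until cyclin-dependent kinases phosphorylate them, and p21, the product of the p53 target CDKN1A, inhibits those kinases. RBL1 or RBL2 with a repressive E2F and the MuvB core, to which LIN9 belongs, form the DREAM complex of resting cells. MuvB also joins MYBL2 and FOXM1, with which it activates genes of mitosis. E2F7 and E2F8 are atypical members that repress without a pocket protein.

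Several of these genes carry the letters of an E2F site in front of their own start. The bases next to the start are shown for the 4 genes found with such letters and for E2F7, which has none. A link between these letters and the responses was not tested. RefSeq promoters of GRCh38.p14 were searched for 8 of the 10 genes, with 12 start sites in all. E2F5 and E2F8 had no entry among the promoters searched. The letters TTTGGCGC, TTTCCCGC, TTTCGCGC and TTTGCCGC were searched as E2F letters and TTTGAA and TTCGAA as letters of the cell cycle homology region (CHR), the site of MuvB, on both strands of the 250 bases before each start. The last 100 of these bases follow, 5′ to 3′ on the strand of the gene, with every match in capitals. E2F1 (chr20:33686386-33686485, minus strand), E2F2 (chr1:23531234-23531333, minus strand), RBL1 (chr20:37095998-37096097, minus strand) and E2F7 (chr12:77065570-77065669, minus strand) have 1 start site in the table. E2F3 has 2, of which the outer one (chr6:20401779-20401878, plus strand) is shown.
E2F1: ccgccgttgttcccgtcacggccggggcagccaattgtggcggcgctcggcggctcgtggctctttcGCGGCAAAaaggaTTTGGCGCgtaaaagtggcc
E2F2: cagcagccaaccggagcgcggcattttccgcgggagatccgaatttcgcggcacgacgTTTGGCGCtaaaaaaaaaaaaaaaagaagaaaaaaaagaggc
E2F3: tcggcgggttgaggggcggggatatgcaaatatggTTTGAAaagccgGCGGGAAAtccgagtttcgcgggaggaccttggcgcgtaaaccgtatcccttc
RBL1: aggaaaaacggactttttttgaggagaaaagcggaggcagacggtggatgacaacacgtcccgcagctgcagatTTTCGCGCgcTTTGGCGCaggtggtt
E2F7: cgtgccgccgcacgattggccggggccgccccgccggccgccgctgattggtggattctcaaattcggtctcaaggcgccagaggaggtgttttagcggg

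The E2F letters stood in 4 of the 12 promoters (33.3%), against 2.79% of the 35116 promoters searched. The promoters searched exclude those on chromosome 8, where E2F5 lies. The 4 promoters with E2F letters were those of E2F1 and RBL1, with 2 matches each, and of E2F2 and E2F3, with 1 each. In RBL1 the matches began 26 and 16 bases before the start, in E2F1 33 and 20 bases before it. The CHR letters stood in 2 of the 12 promoters (16.7%), those of E2F3 and LIN9, against 14.3% of the promoters searched. The match of LIN9 was at a start site 603 bases inside its locus, and its outermost start site had none. No 2 matches overlapped. E2F7 and RBL2 held neither set of letters within 250 bases, and the start site given for RB1 lies 172699 bases inside its locus, so that window is not the one in front of the gene. A match of letters is a description of sequence and was not measured as binding.

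The medians of the arrays ran from 5.64 to 5.84 on the log2 scale, and duplicates correlated across genes at r = 0.983 to 0.994. The AICAR arrays had the highest medians, at 5.83 and 5.77 in sh-p53 and 5.76 and 5.84 in sh-con. No other array exceeded 5.74, so overall level and AICAR cannot be told apart. Duplicates stood furthest apart in sh-con AICAR, where the 10 genes differed between the arrays by a median of 0.33 on the log2 scale. Of the 10 hepatocyte markers 9 were on the array, with mean levels of 10.79 to 12.80, while 1 of 6 endothelial markers (ENG, 5.81) lay above the filter for dim genes (4.58). Of the fibroblast markers 4 of 6 lay above it, the highest being COL1A1 at 6.47, and of the leukocyte markers LYZ (12.48) and CD14 (5.59) did, with PTPRC at 3.26. The p53 transcript itself was not analysed here, so p53 targets stood in as a check of the labels. CDKN1A read 7.61 and 7.63 in sh-p53 Nutlin arrays, against 9.92 and 9.76 in sh-con Nutlin arrays. With AICAR it read 8.02 and 7.96 in sh-p53, against 9.31 and 9.21 in sh-con, and with DMSO 6.14 and 6.32 in sh-p53, against 7.06 and 6.93 in sh-con. It was thus lower in sh-p53 under each treatment without overlap, yet it still rose in sh-p53 with Nutlin, by 1.39 ± 0.134 on the log2 scale (SE, limma, adjusted p = 6.67e-05). MDM2 read 11.20 and 11.17 in sh-p53 Nutlin arrays, against 12.07 and 12.21 in sh-con Nutlin arrays. Against DMSO of the same line, MDM2 rose with Nutlin by 1.32 in sh-p53 and by 1.59 in sh-con, so much of its rise was kept in sh-p53.

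**Figure D1:**
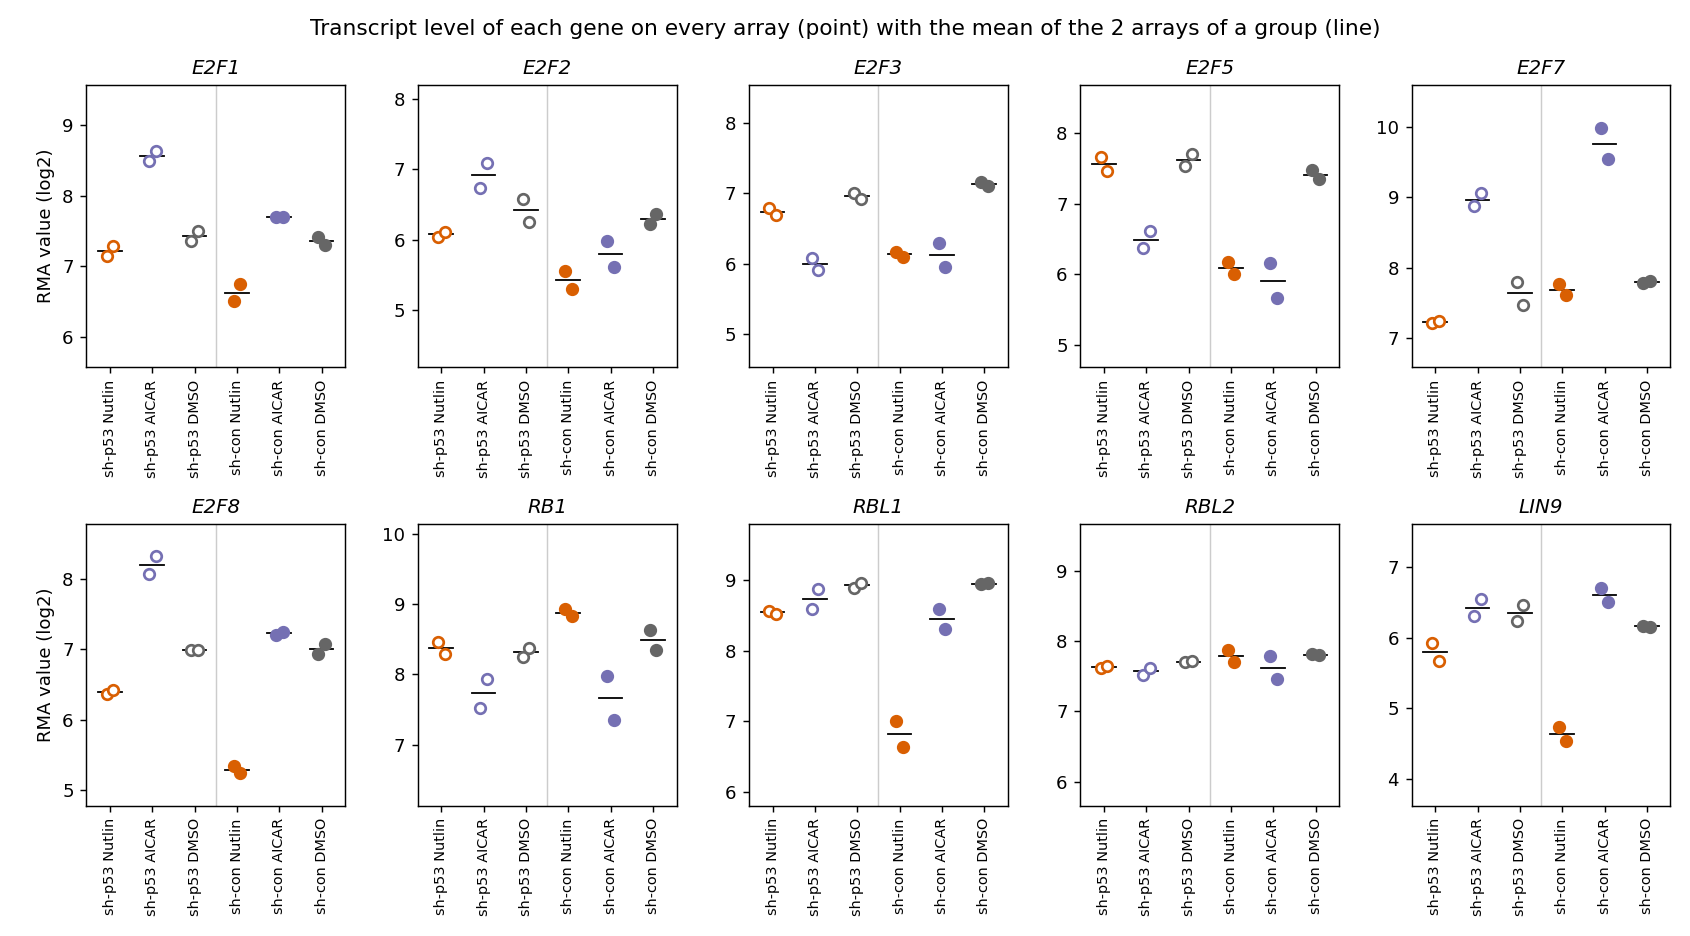
Transcript level of each gene on every array, as RMA values on the log2 scale, with points for arrays and a line at the mean of the 2 arrays of a group. Open points are sh-p53 and filled points sh-con. RBL1, E2F8 and LIN9 were lowest in sh-con Nutlin arrays, and E2F7 was highest in sh-con AICAR arrays.

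With Nutlin in sh-con, 7 of the 10 genes fell and none rose, against 18.9% of all tested genes that fell and 11.3% that rose. Their median difference from DMSO was -0.93 on the log2 scale, against 0.01 over all tested genes. The 7 were E2F1, E2F2, E2F3, E2F5, E2F8, RBL1 and LIN9, and 4 of them fell at least 2-fold. E2F7, RB1 and RBL2 did not pass. A change counts as called where the Benjamini-Hochberg adjusted p of limma over all tested genes was under 0.05, and errors are SE of that fit, with 2 arrays per group. With Nutlin in sh-p53, limma called 0 of the 10 (background 0.0796%), and at an unadjusted p under 0.05 there were 4 lower and 0 higher. The count was also 0 in each alternative fit tried.

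With AICAR in sh-p53, 4 of the 10 rose and 3 fell, where 16.2% of all tested genes rose and 21.6% fell. In sh-con 2 rose and 5 fell, where 14.6% of all tested genes rose and 23.2% fell. E2F3, E2F5 and RB1 fell in both lines and E2F7 rose in both. Both comparisons with DMSO within a line share its DMSO arrays with the Nutlin comparison. The count of 7 in sh-con was 4 without sh-con DMSO replicate 1, without sh-con DMSO replicate 2 or without sh-con AICAR replicate 2. Of all genes called with AICAR, 42.8% were higher in sh-p53 and 38.7% in sh-con. When each array was centred on its own median these shares were 23.1% in sh-p53 and 22% in sh-con, and the median of all genes moved by -0.15 and -0.14 in those lines.

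**Figure D2:**
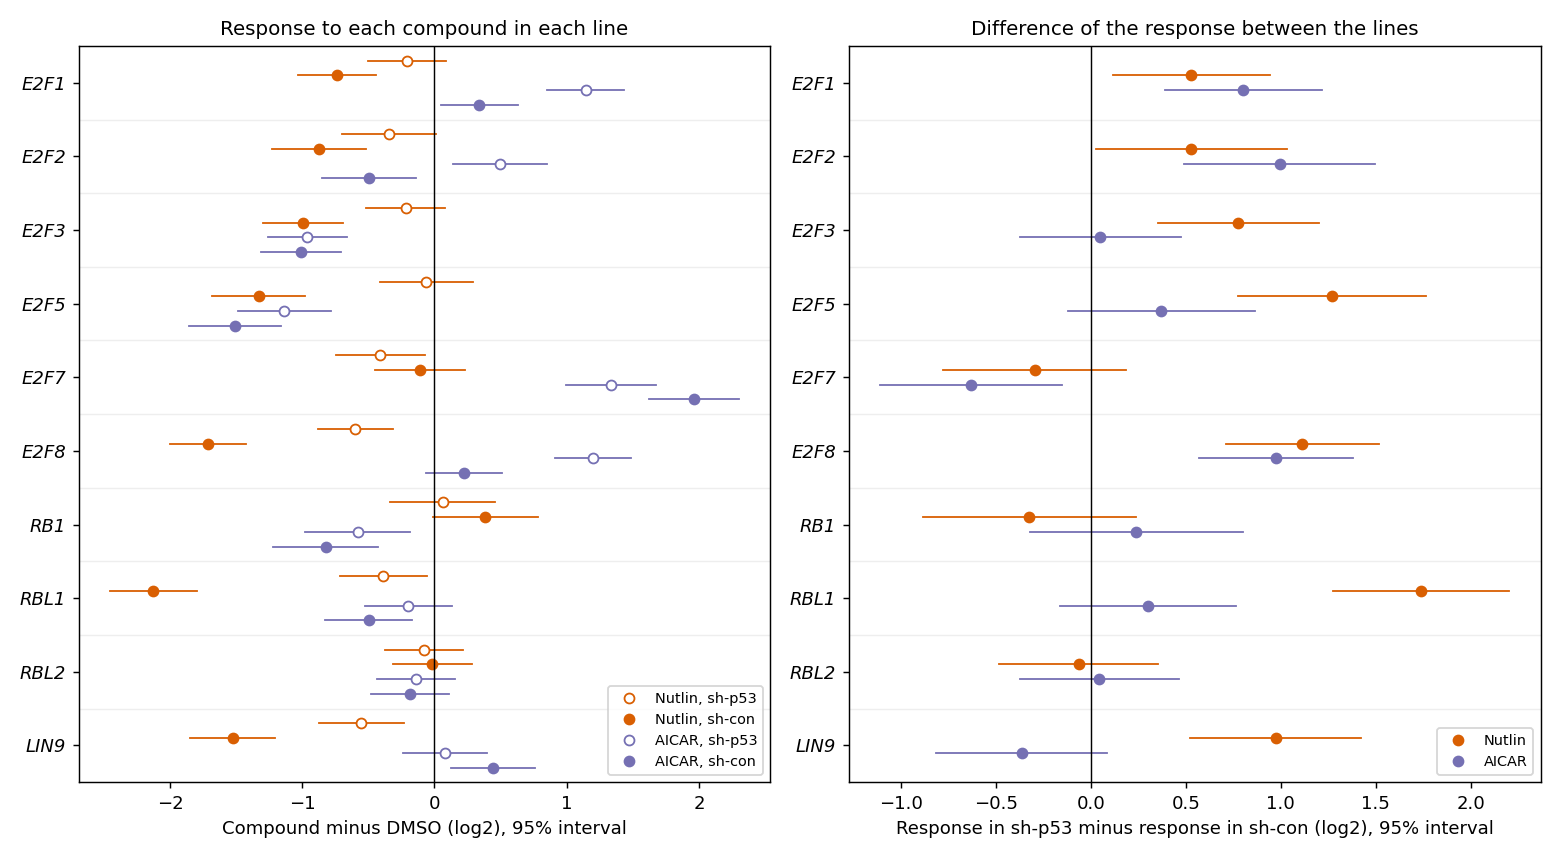
Left, difference of each compound from DMSO on the log2 scale in each line. Right, the response in sh-p53 minus the response in sh-con. Points are estimates from limma and bars their 95% intervals. The filled Nutlin points of RBL1, E2F8 and LIN9 lie furthest left, and the AICAR points of E2F7 furthest right.

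Among the activating E2F factors, E2F1 drives entry into DNA synthesis. E2F1 read 7.14 and 7.29 in sh-p53 Nutlin, 8.49 and 8.64 in sh-p53 AICAR and 7.35 and 7.49 in sh-p53 DMSO arrays. In sh-con it read 6.51 and 6.74 with Nutlin, 7.69 and 7.70 with AICAR and 7.42 and 7.30 with DMSO. The sh-con Nutlin arrays were thus the lowest and the sh-p53 AICAR arrays the highest, each apart from all other arrays. E2F1 fell by 0.73 ± 0.139 on the log2 scale with Nutlin in sh-con (adjusted p = 0.000648). With AICAR it rose by 1.14 ± 0.139 in sh-p53 (adjusted p = 6.1e-06). Its AICAR difference of 0.34 in sh-con missed the threshold (adjusted p = 0.0632), although the AICAR and DMSO arrays did not overlap. Of the 20 alternative settings, which include each array left out, 2 called it. They were repeated quantile normalisation (adjusted p = 0.0139) and the filter at the 40th percentile (0.0499). Over all these settings the difference ran from 0.20 to 0.42.

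E2F2, a second activator, had its highest values in sh-p53 AICAR arrays, at 6.74 and 7.09. It read 6.04 and 6.11 in sh-p53 Nutlin and 6.58 and 6.25 in sh-p53 DMSO arrays. With the control hairpin it read 5.55 and 5.30 with Nutlin, 5.98 and 5.62 with AICAR and 6.22 and 6.37 with DMSO. Both compounds therefore lay below DMSO in sh-con, while in sh-p53 AICAR lay above it. E2F2 fell by 0.87 ± 0.169 with Nutlin in sh-con (adjusted p = 0.000808). With AICAR it rose by 0.50 ± 0.169 in sh-p53 (adjusted p = 0.0281) and fell by 0.50 ± 0.169 in sh-con (adjusted p = 0.0275). Both AICAR calls were fragile. The one in sh-p53 was lost with centred arrays (adjusted p = 0.157), with repeated quantile normalisation (0.0785), without sh-p53 DMSO replicate 2 (0.259) and without sh-p53 AICAR replicate 2 (0.222). The one in sh-con was lost without sh-con AICAR replicate 2 (0.245), sh-con DMSO replicate 2 (0.139) and sh-con DMSO replicate 1 (0.0634).

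E2F3, the other activator here, fell with AICAR in both lines and with Nutlin in sh-con. It read 6.79 and 6.70 in sh-p53 Nutlin, 6.08 and 5.92 in sh-p53 AICAR and 7.0 and 6.92 in sh-p53 DMSO arrays. Its sh-con values were 6.17 and 6.10 with Nutlin, 6.29 and 5.95 with AICAR and 7.16 and 7.10 with DMSO. The sh-p53 AICAR, sh-con Nutlin and sh-con AICAR arrays shared a low range, below all the others. The AICAR difference was -0.96 ± 0.143 in sh-p53 (adjusted p = 4.84e-05) and -1.01 ± 0.143 in sh-con (adjusted p = 2.65e-05). With Nutlin E2F3 differed by -0.22 ± 0.143 in sh-p53 (adjusted p = 0.924) and by -0.996 ± 0.143 in sh-con (adjusted p = 4.11e-05).

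E2F5, a repressor that works through pocket proteins, fell in the same comparisons with DMSO as E2F3. It read 7.66 and 7.47 in sh-p53 Nutlin, 6.37 and 6.61 in sh-p53 AICAR and 7.54 and 7.71 in sh-p53 DMSO arrays. The sh-con arrays read 6.17 and 6.00 with Nutlin, 6.16 and 5.66 with AICAR and 7.48 and 7.35 with DMSO. The sh-p53 Nutlin arrays overlapped those with DMSO, while sh-con arrays with either compound lay over 1 unit lower. E2F5 fell with AICAR by 1.13 ± 0.166 in sh-p53 (adjusted p = 4.01e-05) and by 1.51 ± 0.166 in sh-con (adjusted p = 1.8e-06). With Nutlin the difference was -0.06 in sh-p53 (95% interval -0.41 to 0.29), and E2F5 fell by 1.33 ± 0.166 in sh-con (adjusted p = 8.17e-06), a level 2.51-fold lower.

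The atypical factors E2F7 and E2F8 often act as a pair in repressing E2F targets. Against DMSO, E2F7 was called with AICAR in both lines, and E2F8 with Nutlin in sh-con and with AICAR in sh-p53. E2F7 read 7.21 and 7.24 in sh-p53 Nutlin, 8.88 and 9.05 in sh-p53 AICAR and 7.80 and 7.47 in sh-p53 DMSO arrays. In sh-con it read 7.76 and 7.61 with Nutlin, 9.98 and 9.54 with AICAR and 7.78 and 7.81 with DMSO. All 4 AICAR arrays stood above all other arrays. E2F7 rose with AICAR by 1.33 ± 0.161 in sh-p53 (adjusted p = 5.59e-06), to a level 2.52-fold higher, and by 1.96 ± 0.161 in sh-con (adjusted p = 7.54e-08), 3.90-fold higher. With Nutlin it differed by -0.41 ± 0.161 in sh-p53 (adjusted p = 0.653) and by -0.11 in sh-con (95% interval -0.45 to 0.23).

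E2F8 read 6.37 and 6.42 in sh-p53 Nutlin, 8.06 and 8.32 in sh-p53 AICAR and 6.99 and 6.99 in sh-p53 DMSO arrays. Its sh-con values were 5.34 and 5.25 with Nutlin, 7.21 and 7.25 with AICAR and 6.93 and 7.08 with DMSO. The sh-con Nutlin arrays were at least 1 unit below any other array, and both sh-p53 Nutlin arrays also lay below both DMSO arrays of their line. E2F8 fell by 1.71 ± 0.136 with Nutlin in sh-con (adjusted p = 2.18e-08), and the difference in sh-p53 was -0.60 ± 0.136 (adjusted p = 0.152). With AICAR it rose by 1.20 ± 0.136 in sh-p53 (adjusted p = 2.76e-06), while the difference in sh-con was 0.23 (95% interval -0.06 to 0.51, adjusted p = 0.198).

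The calls of the 3 pocket proteins differed. RBL1, which binds repressive E2F factors and is itself encoded by an E2F target gene, read 8.57 and 8.52 in sh-p53 Nutlin, 8.60 and 8.87 in sh-p53 AICAR and 8.90 and 8.97 in sh-p53 DMSO arrays. The sh-con arrays read 7.01 and 6.64 with Nutlin, 8.59 and 8.31 with AICAR and 8.94 and 8.96 with DMSO. The sh-con Nutlin arrays were over 1 unit below all others, which spanned less than 1 unit. RBL1 was 4.36-fold lower with Nutlin in sh-con (log2 difference -2.12 ± 0.155, adjusted p = 7.32e-09). In sh-p53 the Nutlin difference was -0.39 ± 0.155 (adjusted p = 0.685). With AICAR RBL1 differed by -0.20 ± 0.155 in sh-p53 (adjusted p = 0.327) and fell by 0.50 ± 0.155 in sh-con (adjusted p = 0.0177). The AICAR call in sh-con was lost without sh-con AICAR replicate 2 (adjusted p = 0.164), sh-con DMSO replicate 1 (0.0813) or sh-con DMSO replicate 2 (0.0732).

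RB1, the retinoblastoma protein, binds the activating E2F factors. It read 8.46 and 8.28 in sh-p53 Nutlin, 7.53 and 7.93 in sh-p53 AICAR and 8.25 and 8.38 in sh-p53 DMSO arrays. With the control hairpin it read 8.92 and 8.83 with Nutlin, 7.98 and 7.36 with AICAR and 8.63 and 8.35 with DMSO. The 4 AICAR arrays were the lowest of the 12 and the sh-con Nutlin arrays the highest, so RB1 lay low with AICAR in both lines. With AICAR it fell by 0.58 ± 0.188 in sh-p53 (adjusted p = 0.0218) and by 0.82 ± 0.188 in sh-con (adjusted p = 0.00225). The call in sh-p53 was lost without sh-p53 AICAR replicate 1 (adjusted p = 0.245), sh-p53 DMSO replicate 1 (0.0523) or sh-p53 DMSO replicate 2 (0.128), and that in sh-con without sh-con AICAR replicate 2 (0.0509). The Nutlin difference of 0.38 ± 0.188 in sh-con did not pass (adjusted p = 0.129). Of the 20 alternative settings 2 called it, repeated quantile normalisation (0.0318) and a fit of the 2 groups alone (0.0309). Over all these settings the difference ran from 0.24 to 0.53.

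RBL2, the pocket protein that prevails in resting cells, was the flattest of the 10 in range. It read 7.61 and 7.64 in sh-p53 Nutlin, 7.51 and 7.62 in sh-p53 AICAR and 7.70 and 7.71 in sh-p53 DMSO arrays. In sh-con it read 7.87 and 7.70 with Nutlin, 7.78 and 7.46 with AICAR and 7.81 and 7.80 with DMSO. No comparison called it, and the 95% interval of the Nutlin difference was -0.38 to 0.22 in sh-p53 and -0.31 to 0.28 in sh-con.

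LIN9, the MuvB subunit, read 5.93 and 5.67 in sh-p53 Nutlin, 6.31 and 6.55 in sh-p53 AICAR and 6.24 and 6.47 in sh-p53 DMSO arrays. The sh-con arrays read 4.74 and 4.54 with Nutlin, 6.70 and 6.51 with AICAR and 6.17 and 6.16 with DMSO. The sh-con Nutlin arrays were the lowest and reached the level of dim genes (4.58), so the size of that fall is uncertain. LIN9 fell by 1.53 ± 0.151 with Nutlin in sh-con (adjusted p = 4.51e-07), and the difference in sh-p53 was -0.55 ± 0.151 (adjusted p = 0.276). With AICAR it differed by 0.08 in sh-p53 (95% interval -0.24 to 0.40) and rose by 0.44 ± 0.151 in sh-con (adjusted p = 0.0291). That rise was lost with centred arrays (0.192), with repeated quantile normalisation (0.0707) and without sh-con AICAR replicate 1 (0.125), sh-con DMSO replicate 1 (0.117) or sh-con DMSO replicate 2 (0.102).

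The order of the groups differed between the genes, and neighbours in it often overlapped. RBL1 stood from high to low in sh-con DMSO, sh-p53 DMSO, sh-p53 AICAR, sh-p53 Nutlin, sh-con AICAR and sh-con Nutlin, with overlap between the first pair and between sh-p53 Nutlin and sh-con AICAR. For E2F8 the order was sh-p53 AICAR, sh-con AICAR, sh-con DMSO, sh-p53 DMSO, sh-p53 Nutlin and sh-con Nutlin, and of neighbours in it the DMSO groups overlapped. For E2F7 it was sh-con AICAR, sh-p53 AICAR, sh-con DMSO, sh-con Nutlin, sh-p53 DMSO and sh-p53 Nutlin, and of neighbours in it sh-con Nutlin and sh-p53 DMSO overlapped.

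The lines were then compared under each treatment. In DMSO, 0 of the 10 genes differed between sh-p53 and sh-con in limma (background 0.644%), and 0 had an unadjusted p under 0.05. The 95% intervals of the 10 differences lay between -0.57 and 0.56 on the log2 scale. With Nutlin, 7 of the 10 were higher in sh-p53 and none lower, where 13.1% of all tested genes were higher and 8.31% lower. RBL1 led, with 8.57 and 8.52 in sh-p53, against 7.01 and 6.64 in sh-con, a difference of 1.72 ± 0.155 (adjusted p = 1.59e-07). E2F5 followed at 1.48 ± 0.166, LIN9 at 1.16 ± 0.151 and E2F8 at 1.10 ± 0.136. E2F2 was higher by 0.65, E2F3 by 0.61 and E2F1 by 0.59. The call of E2F1 was lost without sh-con Nutlin replicate 1 (adjusted p = 0.0713), and that of E2F2 without sh-con Nutlin replicate 2 (0.116) or sh-p53 Nutlin replicate 2 (0.0506).

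E2F7 and RB1 lay the other way under Nutlin and narrowly missed the threshold. E2F7 differed by -0.46 ± 0.161 (adjusted p = 0.0508) and RB1 by -0.50 ± 0.188 (adjusted p = 0.0682), with no overlap of the arrays of either gene. Both passed without sh-con AICAR replicate 1 (adjusted p = 0.0225 and 0.0208) and without sh-con AICAR replicate 2 (0.0225 and 0.0208), arrays that enter this comparison only through the shared estimate of spread. Both also passed with repeated quantile normalisation (0.0173 for E2F7 and 0.0217 for RB1), with the 2 groups fitted alone (0.0359 and 0.0194) and with trend and robust eBayes (0.0305 and 0.0374). E2F7 passed as well with the filter at the 40th percentile (0.0393) and with the mean of a gene's probe sets (0.0497). Of the 20 alternative settings, E2F7 passed in 8 and RB1 in 5, so most settings called neither. The differences ran from -0.54 to -0.38 for E2F7 and from -0.59 to -0.41 for RB1.

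With AICAR, 4 of the 10 genes were higher in sh-p53 and 1 was lower, where 4.13% of all tested genes were higher and 4.69% lower. E2F2 was higher by 1.12 ± 0.169 (adjusted p = 0.000407), E2F8 by 0.96 ± 0.136 (adjusted p = 0.000208) and E2F1 by 0.86 ± 0.139 (adjusted p = 0.000721). E2F7 was lower by 0.79 in sh-p53 (difference -0.79 ± 0.161, adjusted p = 0.00469), and E2F5 was higher by 0.58 ± 0.166 (adjusted p = 0.0358). Without sh-p53 AICAR replicate 1 the count was 3, since E2F5 (0.0664) and E2F7 (0.0599) were lost. E2F5 was lost too without sh-p53 AICAR replicate 2 (0.235), without sh-con AICAR replicate 2 (0.264) and with centred arrays (0.0615), and E2F7 without sh-con AICAR replicate 1 (0.0531).

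**Figure D3:**
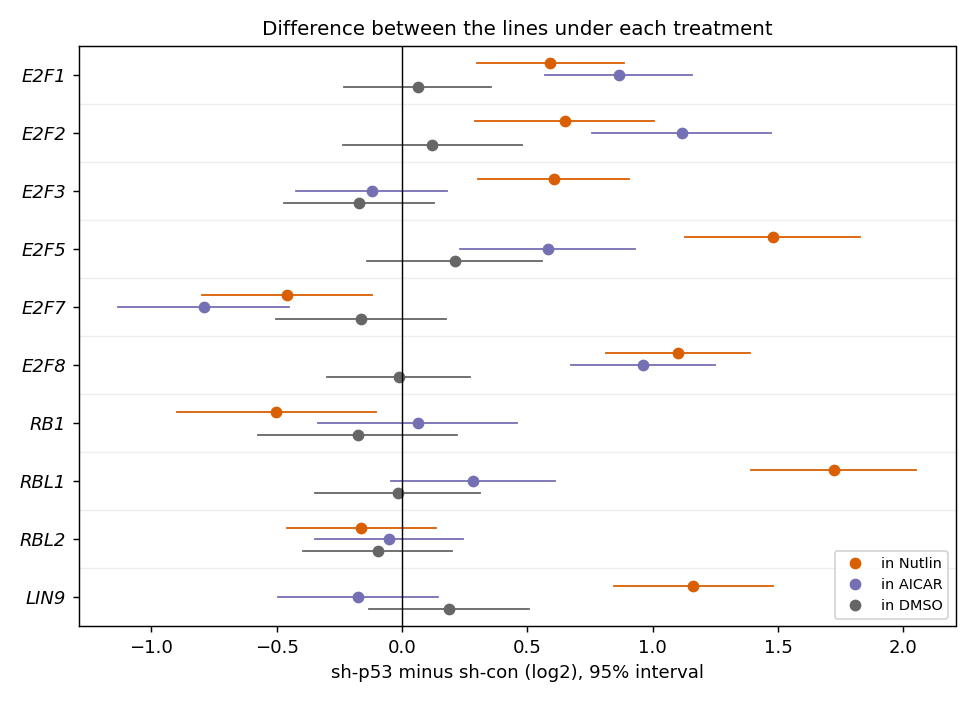
Difference between the lines, sh-p53 minus sh-con, on the log2 scale under Nutlin, AICAR and DMSO, with points from limma and bars for 95% intervals. The DMSO bars of all 10 genes cross 0, and the Nutlin points of RBL1, E2F5, LIN9 and E2F8 lie above 1.

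Whether a response itself differed between the lines was tested as an interaction, the response in sh-p53 minus that in sh-con. For Nutlin 5 of the 10 genes passed and all were positive, where 4.67% of all tested genes had a positive call and 2.73% a negative one. RBL1 had an interaction of 1.74 ± 0.220 (adjusted p = 2.65e-05), E2F5 of 1.27 ± 0.234 (adjusted p = 0.00153) and E2F8 of 1.11 ± 0.192 (adjusted p = 0.000784). LIN9 had 0.97 ± 0.214 (adjusted p = 0.00648) and E2F3 0.78 ± 0.202 (adjusted p = 0.0224). E2F1 and E2F2 did not pass, each at 0.53 (adjusted p = 0.128 and 0.234), so a difference between the lines in their fall was not established.

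Without sh-p53 DMSO replicate 1, 3 Nutlin interactions remained called, since LIN9 (adjusted p = 0.0542) and E2F3 (0.06) were lost. E2F3 was lost as well without sh-p53 DMSO replicate 2 (0.0845), sh-con DMSO replicate 1 (0.103), sh-con DMSO replicate 2 (0.0601), sh-con Nutlin replicate 2 (0.0863) or sh-p53 Nutlin replicate 1 (0.0853). For AICAR 1 of the 10 interactions passed, with a positive sign, where 0.304% of all tested genes had a positive call and 0.709% a negative one. It was that of E2F8 at 0.98 ± 0.192 (adjusted p = 0.0191). It was lost without sh-con DMSO replicate 1 (0.0609), sh-con DMSO replicate 2 (0.122), sh-p53 DMSO replicate 1 (0.0733), sh-p53 DMSO replicate 2 (0.0961) or sh-p53 AICAR replicate 2 (0.0992). E2F2 came next at 0.99 ± 0.239 (adjusted p = 0.0528) and passed without sh-con AICAR replicate 1 (0.0236), with the filter at the 40th percentile (0.0414) and with trend and robust eBayes (0.0431). E2F1 stood at 0.80 ± 0.197 (adjusted p = 0.0585) and passed with repeated quantile normalisation (0.0326), with that filter (0.0433) and with trend and robust eBayes (0.0369). Of the 20 alternative settings, E2F2 passed in 4 and E2F1 in 3, so most settings called neither. Of all genes called in this interaction 30% were positive, and 16.9% with centred arrays.

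The compounds were also compared directly within each line. Nutlin and AICAR are chemically unrelated, and each was given at a single dose. In sh-p53, 3 of the 10 genes were higher with Nutlin than with AICAR and 5 were lower, where 19% of all tested genes were higher and 15.6% lower. In sh-con 1 was higher and 5 were lower, where 17.9% of all tested genes were higher and 16.9% lower. E2F8 was lower with Nutlin, with a difference of -1.80 ± 0.136 in sh-p53 (adjusted p = 4.45e-08) and of -1.94 ± 0.136 in sh-con (adjusted p = 4e-09). E2F7 differed by -1.74 ± 0.161 in sh-p53 and by -2.07 ± 0.161 in sh-con, and E2F1 by -1.35 ± 0.139 and -1.07 ± 0.139 in the same lines.

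RB1 ran the opposite way, higher with Nutlin by 0.64 ± 0.188 in sh-p53 (adjusted p = 0.0131) and by 1.21 ± 0.188 in sh-con (adjusted p = 6.19e-05). In sh-p53 that call was lost without sh-p53 Nutlin replicate 1 (adjusted p = 0.101) or sh-p53 AICAR replicate 1 (0.176). E2F3 and E2F5 were higher with Nutlin in sh-p53, by 0.74 ± 0.143 and 1.07 ± 0.166. In sh-con they did not differ past the threshold, with 95% intervals of -0.29 to 0.32 for E2F3 and -0.17 to 0.53 for E2F5. RBL1 was lower with Nutlin by 1.63 in sh-con (difference -1.63 ± 0.155), and its interval in sh-p53 was -0.52 to 0.14. Of the genes called over all tested genes in sh-p53, 55% were higher with Nutlin, and 69.2% with centred arrays.

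The genes around these factors were described from textbook lists. As background of the Nutlin counts of every list, 0.0796% of all tested genes were called in sh-p53. In sh-con 18.9% of all tested genes fell and 11.3% rose. A positive Nutlin interaction was called for 4.67% of them. The list of E2F target genes of G1/S, which encode replication proteins, had 33 tested members, of which 0 passed with Nutlin in sh-p53 and 32 fell in sh-con. Their median difference was -0.41 in sh-p53, where 28 had an unadjusted p under 0.05 and all of these were lower, and -2.23 in sh-con. CLSPN, a checkpoint mediator, fell by 4.28 in sh-con, to 4.18, below the level of dim genes, so that size is uncertain. CDC6, which loads the replicative helicase, fell by 3.92 and RRM2, a ribonucleotide reductase subunit, fell by 3.69. The Nutlin interaction was called for 31 of the 33, all positive. The list of G2/M target genes of MuvB, which act in mitosis, had 24 tested members, of which 0 passed with Nutlin in sh-p53 and 24 fell in sh-con. The medians were -0.50 in sh-p53, where 20 were lower at an unadjusted p under 0.05, and -2.87 in sh-con. NUF2, a kinetochore protein, and BUB1, a spindle checkpoint kinase, each fell by 3.77 in sh-con, and all 24 interactions were called and positive. With a fit of the 2 groups alone, 2 members of the G1/S list and 5 of the G2/M list were lower with Nutlin in sh-p53. Of the G1/S list 1 was lower there without sh-con AICAR replicate 1, and 1 without sh-con AICAR replicate 2.

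E2F letters were found in 29.2% of the 48 promoters of the G1/S list and CHR letters in 56.0% of the 25 promoters of the G2/M list. With AICAR, 6 of the 33 G1/S genes rose and 4 fell in sh-p53, where 16.2% of all tested genes rose and 21.6% fell. In sh-con 6 rose and 16 fell, where 14.6% of all tested genes rose and 23.2% fell. The same shares are the background of the AICAR counts of the other lists. PRIM1, a primase subunit, fell by 1.15 in sh-p53 and by 0.94 in sh-con. The 6 that rose in sh-p53 were 2 without sh-p53 DMSO replicate 1, 2 without sh-p53 AICAR replicate 2 and 3 without sh-p53 AICAR replicate 1, and the 4 that fell were 2 without the last of these arrays. In sh-con the number that rose was 2 without sh-con DMSO replicate 1, sh-con DMSO replicate 2 or sh-con AICAR replicate 1, and the number that fell was 9 without sh-con DMSO replicate 1. With centred arrays 2 rose in each line. Of the 24 G2/M genes 4 rose and 2 fell in sh-p53, and 7 rose and 3 fell in sh-con. CENPE, a kinetochore motor, rose by 1.03 in sh-p53 and by 1.25 in sh-con. The 7 were 4 without sh-con DMSO replicate 2, and the 2 that fell in sh-p53 were 1 without sh-p53 DMSO replicate 2 or sh-p53 AICAR replicate 1. With centred arrays 4 rose in sh-con and 6 fell in sh-p53.

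Of the 12 partners in DREAM, MuvB and dimerisation, 0 passed with Nutlin in sh-p53, where 3 were lower at an unadjusted p under 0.05, and 10 fell in sh-con. MYBL2, the activating partner of MuvB, fell by 3.06 in sh-con, and TFDP1, with which E2F factors dimerise, by 1.15. With AICAR 3 rose and 4 fell in sh-p53, and 1 rose and 5 fell in sh-con. MYBL1, a relative of MYBL2, rose by 2.09 in sh-p53 and by 1.97 in sh-con, and TFDP2, another dimerisation partner, fell by 1.41 and by 1.48. The 4 were 2 without sh-p53 DMSO replicate 2 or sh-p53 AICAR replicate 1. Of the 9 cyclins and kinases that act on pocket proteins, 0 passed with Nutlin in sh-p53, where 1 was lower at an unadjusted p under 0.05, and 5 fell in sh-con. CCNA2, the S-phase cyclin A2, fell by 3.66 in sh-con and CDK2, its kinase, fell by 2.36. With AICAR 4 rose and 1 fell in sh-p53, and 3 rose and 3 fell in sh-con. CCNE2, a cyclin E, rose with AICAR by 2.48 in sh-p53 and by 2.05 in sh-con, while CDK6, a kinase of cyclin D, fell by 1.79 and by 2.16.

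Of the 6 tested CDK inhibitors, CDKN1A alone rose with Nutlin in sh-p53 and 2 rose and 1 fell in sh-con. CDKN2B, which binds CDK4 and CDK6, rose by 0.97 in sh-con, and CDKN1B, which binds CDK2, fell by 0.98. With AICAR 4 rose and 1 fell in sh-p53, and 3 rose and 0 fell in sh-con, with CDKN2B up by 1.40 in sh-p53 and by 1.67 in sh-con. Of 13 tested corepressors, 0 passed with Nutlin in sh-p53, where 3 were lower at an unadjusted p under 0.05, and 8 fell in sh-con. The histone methyltransferase EZH2 fell by 1.60 in sh-con. The 8 were 5 without sh-con DMSO replicate 1 or sh-con Nutlin replicate 2. With AICAR 6 fell in sh-p53, or 3 without sh-p53 DMSO replicate 2 or sh-p53 AICAR replicate 1, and 3 fell in sh-con, or 1 without sh-con DMSO replicate 1 or sh-con AICAR replicate 2. MGA, a subunit of an E2F6 complex, fell by 1.08 in sh-p53, and L3MBTL2 of the same complex fell by 0.77.

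Of 8 tested apoptosis genes induced by E2F1, 0 passed with Nutlin in sh-p53, also with 0 at an unadjusted p under 0.05, and 2 rose and 1 fell in sh-con, where 1 rose and 0 fell without sh-con DMSO replicate 1 or sh-con Nutlin replicate 2. APAF1, the core of the apoptosome, rose by 1.04 in sh-con, where E2F1 itself fell. The name of this list is textbook knowledge, and whether E2F1 had a part in any of its changes was not tested. With AICAR 4 rose and 1 fell in each line. PMAIP1, a BH3-only protein, rose with AICAR by 2.27 in sh-p53 and by 3.33 in sh-con, and BCL2L11, another one, by 1.81 and by 2.04. The 4 in sh-p53 were 2 without sh-p53 DMSO replicate 2 or sh-p53 AICAR replicate 1. The fall in sh-con was lost without sh-con DMSO replicate 1 or sh-con AICAR replicate 2, and in sh-p53 2 fell without sh-p53 Nutlin replicate 1 or 2, or without sh-con AICAR replicate 1 or 2.

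**Figure D4:**
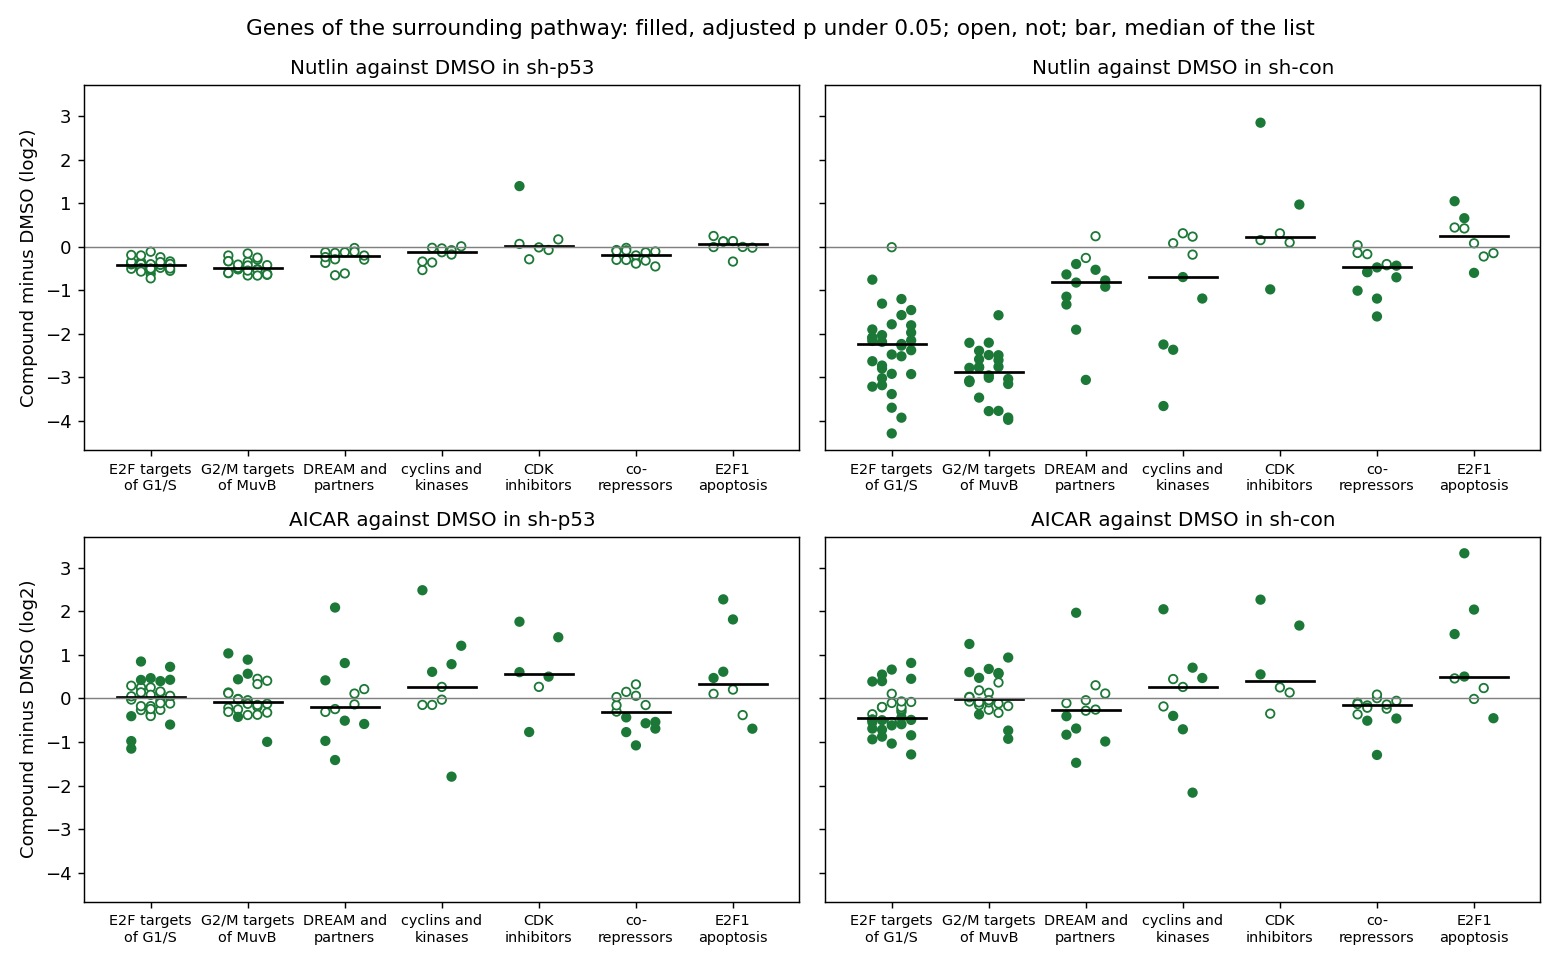
Difference of each compound from DMSO on the log2 scale for every tested gene of the 7 lists, with a bar at the median of a list. Filled points passed an adjusted p of 0.05 in limma and open ones did not. With Nutlin in sh-con the medians of the G1/S and G2/M lists were -2.23 and -2.87, and in sh-p53 -0.41 and -0.50.

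The genes whose values most resembled each member over the 12 arrays were named from 2994 genes with group means spanning at least 1 unit. The 12 arrays fall into 6 groups, which all genes share, so these correlations largely restate the group means. RBL1 was most like KNTC1 (Pearson r = 0.996), a kinetochore protein, NCAPD3 (0.996), a condensin subunit, and PLK1 (0.994), a mitotic kinase on the G2/M list. LIN9 was most like SPDL1 (0.990), CENPQ (0.989) and KIF20A (0.988), which act at kinetochores or in cytokinesis. E2F8 was most like DCLRE1B (0.988), CASP2 (0.988) and PASK (0.986), and E2F7 most like EED (0.975), DYNLL2 (0.975) and CEP120 (0.972). For E2F1 these were CNPY2 (0.978), PLCB3 (0.974) and SIX4 (0.971), and for E2F2 BCL9 (0.980), HDGF (0.959) and CAVIN1 (0.959). E2F3 was most like SLC19A3 (0.988), FIGN (0.970) and EPB41L2 (0.968), and E2F5 most like DGKK (0.985), SNORD74 (0.981) and SNORD116-6 (0.980). RB1 was most like MAP2K4 (0.976), SEMA3B (0.967) and ETFDH (0.967). RBL2 had the lowest such values, with BLTP1 at 0.893, DET1 at 0.855 and STIM2 at 0.854. Of all the genes named here, PLK1 and KIF20A are on a list used above.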

How the data were processed

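Total RNA, 200 ng per array, was hybridised to Affymetrix arrays, per the labels' protocols. The deposited values were RMA values on the log2 scale, from 2.14 to 14.33. RMA and Partek are named in the submitters' processing notes, and their versions are not given in the sources used here. The method normalises the arrays towards 1 distribution, has no detection call and understates changes of dim genes.

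Of 33297 probe sets, 19460 had 1 gene symbol in the platform annotation, 1754 several, and 12083 were unnamed here. Each gene was read from the brightest of its probe sets with a single symbol over the 12 arrays, and 4604 genes whose mean lay under the 25th percentile (4.58) were left out. The 6 group means were fitted in limma 3.58.1 in R 4.3.3 (files were read by data.table, release 1.17.8) over all 12 arrays, with 6 residual degrees of freedom and 11.3 from the prior. In each of 11 comparisons, 2-sided p-values were adjusted by Benjamini-Hochberg over 13813 genes, with calls under 0.05. With 2 arrays per group, the number of arrays limits precision.

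Each array was placed by its title. The replicate numbers in the titles were checked and do not pair the arrays. The 10 genes, the 7 lists and the naming rule (every member, up to 4 called genes of a list with the largest changes, CDKN1A and MDM2, and 3 most similar genes) were chosen with earlier results of these data known. Some genes of the lists were not analysed here. Alternatives were repeated quantile normalisation, median centring, other filters, the mean of a gene's probe sets, fits of the compared groups alone, the replicate block, trend with robust eBayes, and each array left out. The fit was tested on simulated data.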

Additional observations from a re-analysis of the deposited data

Results flagged for a closer look

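For 5 genes the response to Nutlin differed between the lines by a test of the difference itself, the response in sh-p53 minus that in sh-con in limma. The difference was 1.74 ± 0.220 on the log2 scale for RBL1 (adjusted p = 2.65e-05), 1.27 ± 0.234 for E2F5 (adjusted p = 0.00153) and 1.11 ± 0.192 for E2F8 (adjusted p = 0.000784). It was 0.97 ± 0.214 for LIN9 (adjusted p = 0.00648) and 0.78 ± 0.202 for E2F3 (adjusted p = 0.0224). For E2F8 the response to AICAR differed as well, by 0.98 ± 0.192 (adjusted p = 0.0191). Some of these calls were fragile among the 12 fits with 1 array left out. The AICAR call of E2F8 was lost in 5, and the Nutlin calls of E2F3 and LIN9 in 6 and 1.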

How the results depend on the processing

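No called difference of the 10 genes reversed under any alternative fit or with any array left out. Weakened calls of named genes are given beside their values above. With repeated quantile normalisation, uncalled differences reversed for E2F7 (0.038) and RBL2 (0.14) with Nutlin in sh-con, LIN9 with AICAR in sh-p53 (-0.019) and RBL1 between the lines in DMSO (0.0018). With centred arrays LIN9 with AICAR in sh-p53 reversed too (-0.075). The cause was not tested. The count of called AICAR interactions was 1 and became 2 with repeated quantile normalisation, 3 with the filter at the 40th percentile and 3 with trend and robust eBayes.

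Replicate numbers in the titles do not pair the arrays. Over 15 pairs of groups, the correlation of deviations of same-numbered arrays ran from -0.56 to 0.57, with 7 above 0.1 and 7 below -0.1. With the replicate block, 2 AICAR interactions were called, E2F2 being added (adjusted p = 0.049), E2F7 passed between the lines in Nutlin (0.0448), and the numbers called in the other 10 comparisons stayed within 1.5 times.

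With each array left out, counts of called members ran from 4 to 7 for AICAR in sh-con, 3 to 5 between the lines in AICAR, 3 to 5 for the Nutlin interaction and 0 to 2 for the AICAR interaction. Uncalled differences that changed sign ranged, for Nutlin against DMSO, from -0.099 to 0.068 (RBL2, sh-con), -0.16 to 0.038 (E2F5, sh-p53) and -0.028 to 0.15 (RB1, sh-p53). For LIN9 with AICAR in sh-p53 the range was -0.041 to 0.20. Between the lines in DMSO it was -0.0088 to 0.13 (E2F1), -0.042 to 0.29 (E2F2), -0.33 to 0.0042 (E2F7), -0.089 to 0.062 (E2F8) and -0.053 to 0.018 (RBL1). Between the lines in AICAR it was -0.29 to 0.049 (E2F3), -0.25 to 0.37 (RB1) and -0.22 to 0.11 (RBL2). For the Nutlin interaction it was -0.15 to 0.019 (RBL2), and for the AICAR interaction -0.12 to 0.22 (E2F3), -0.072 to 0.55 (RB1) and -0.12 to 0.21 (RBL2). For Nutlin against AICAR in sh-con it was -0.16 to 0.19 (E2F3) and -0.071 to 0.42 (E2F5). With 2 arrays per group, differences of the size of these ranges cannot be resolved.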
